A study of Homo sapiens with 4 samples.

Results

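The response of human microglia-like cells to semagacestat, an inhibitor of γ-secretase, was measured in the absence of lipopolysaccharide (LPS), by single-cell RNA sequencing of 3 treated cultures (Sema) and 3 vehicle cultures (Ctrl). The cells were derived from the H9 line of human embryonic stem cells through monocyte-like precursors matured in a medium with TGF-β, IL-34 and cholesterol. Sema cultures received 2 µM semagacestat and Ctrl cultures DMSO for 22 h, and both received PBS in place of LPS for the last 6 h. The other conditions of the study, SemaLPS and LPS (200 ng/mL LPS for those 6 h), with 3 cultures each, enter here through a common model and 1 test of the difference between the responses. Each culture had its own hashtag antibody, and all were pooled and divided into 2 droplet libraries. Cells were assigned to a culture where the leading hashtag had at least 30 unique molecular identifiers (UMIs, each standing for 1 captured molecule) and at least 3 times the next hashtag, and were kept if 1000 or more genes were detected and mitochondrial transcripts made up no more than 10% of UMIs. This gave 8175 cells, 4611 Sema and 3564 Ctrl, of 16937 kept cells in the whole series. The cultures are of 1 line, and the labels do not say that they came from separate differentiations, so p-values measure only the spread between these cultures.

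γ-Secretase is a membrane protease built around presenilin. It cuts the membrane stubs left when ectodomains of receptors and adhesion proteins are shed, and for Notch receptors this cut frees the intracellular domain that acts in the nucleus with the DNA-binding protein RBPJ. Microglia express the enzyme and many of its substrates, among them TREM2, APP and CSF1R. The study asked whether blocking this processing alters gene expression in microglia.

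The kept cells of a culture held 37516154 to 60453967 UMIs in Sema and 34780161 to 36631604 in Ctrl, with medians of 28051 to 28639 UMIs per cell in Sema and 28406.5 to 28792 in Ctrl. All 10 markers of microglia and macrophages were above 1 CPM (a UMI count scaled to a common library total), with a summed level of 6440 to 6690 in Sema and 6250 to 6510 in Ctrl. The summed levels of erythroid, megakaryocyte, granulocyte precursor, mast cell and pluripotent markers stayed at or under 1.12 CPM in every culture. Neural markers summed to 8.56 to 11.6 in Sema and 8.19 to 12.7 in Ctrl, fibroblast markers to 2.72 to 5.62 and 3.02 to 13.4, dendritic markers to 33.2 to 40.4 and 33.0 to 42.3, lymphocyte markers to 17.9 to 21.0 and 19.9 to 20.9, and endothelial markers, of which PECAM1 alone exceeded 1 CPM, to 74.7 to 78.8 and 77.4 to 97.7. The monocyte list summed to 279 to 292 in Sema and 247 to 274 in Ctrl, mainly through S100A9, while its member FCN1 lay under 1 CPM. A set of 6 genes that LPS induces (TNIP3, CCL20, TNFAIP6, TRAF1, CXCL1 and CXCL3) took 0.293, 0.262 and 0.362 per 10000 UMIs in Sema and 0.323, 0.319 and 0.233 in Ctrl, against 5.548 to 6.87 in LPS-treated cultures. Cells over 5 per 10000 numbered 8, 4 and 18 in Sema-1 to Sema-3 and 8, 7 and 2 in Ctrl-1 to Ctrl-3. With the leading hashtag at 10 times the next, Sema-3 stood at 0.223 and Ctrl-3 at 0.254. Ctrl-3, whose leading hashtag had a median of only 359.5 UMIs, was then reduced to 545 of its 1144 cells. Thresholds set per hashtag in the manner of HTODemux kept 1048 Ctrl-3 cells, and gave 0.197 in Sema-3 and 0.219 in Ctrl-3. The libraries shared 91 barcodes, and 48 kept cells of all 12 cultures carried a barcode kept in both.

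Semagacestat changed many transcripts by small amounts. UMIs were summed per culture and compared by edgeR's quasi-likelihood test over all 12 cultures with the replicate number as a block, and a gene is called changed below where its Benjamini-Hochberg adjusted p over all genes tested was under 0.05. Of 15383 genes, 225 rose (1.46%) and 231 fell (1.5%), together 456 (2.96%). The median size of a called change was 1.16-fold, and 37 called genes changed over 1.5-fold and 13 over 2-fold. Of the 456, 454 moved the same way in all 3 pairs. A test with the block favours genes that agree in this way, so the count is no separate support. Without the block 2 genes passed, HES1 and EGR3, and 1087 had an unadjusted p under 0.05. With the block, DESeq2's Wald test called 301 genes. The count depended on 5 of the 6 cultures: leaving out Sema-1, Sema-2 or Sema-3 gave 242, 109 or 121 genes, and leaving out Ctrl-1, Ctrl-2 or Ctrl-3 gave 433, 119 or 69.

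**Figure D1:**
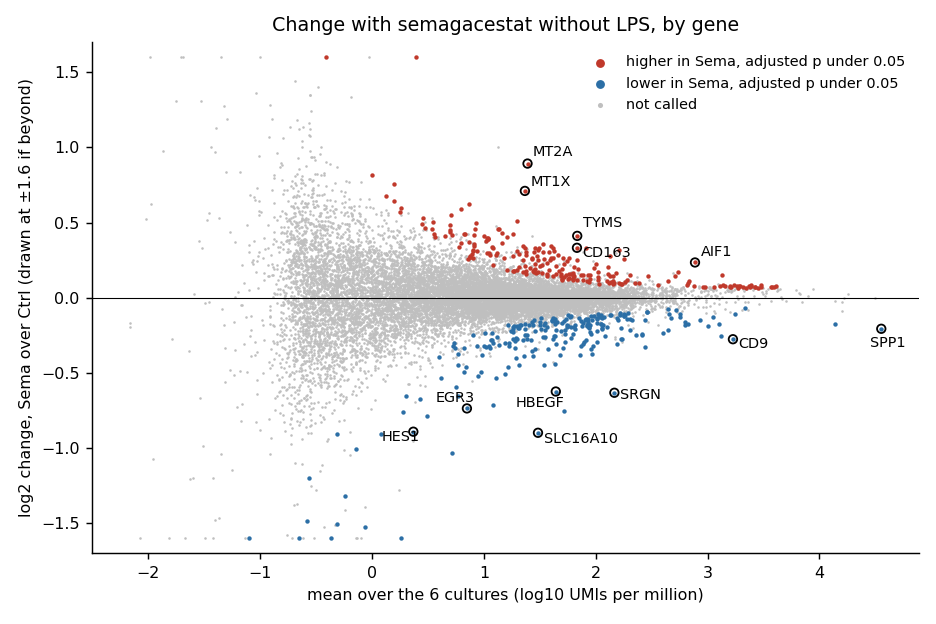
Each point is a gene, with its mean level over the 6 cultures on the x axis (log10 CPM) and its log2 change, Sema over Ctrl, on the y axis; red and blue points are genes called higher or lower in Sema, and circled genes are named. The 225 called rises and 231 called falls lie mostly within 1.5-fold, and MT2A, MT1X and SLC16A10 stand out among genes over 20 CPM.

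SLC16A10, SRGN and HBEGF were among the largest falls over 20 CPM. SLC16A10, a transporter of aromatic amino acids (ENSG00000112394, protein-coding, chromosome 6 at 111087503 to 111231194), had 16.9, 19.1 and 27.4 CPM in Sema-1 to Sema-3, against 25.4, 38.4 and 55.6 in Ctrl-1 to Ctrl-3. Every Sema culture lay below the Ctrl culture of its number, although Sema-3 lay above Ctrl-1, and the log2 fold change was −0.90 (SE 0.12, adjusted p = 0.00246). SRGN, the core protein of the proteoglycan of secretory granules (ENSG00000122862, chromosome 10 at 69088106 to 69104811), stood at 115 ± 12.9 in Sema and 179 ± 33.8 in Ctrl (SD, n = 3 each; −0.63, SE 0.09). HBEGF, a growth factor shed from the cell surface that binds the EGF receptor (ENSG00000113070, chromosome 5 at 140332843 to 140346631), stood at 34.7 ± 4.78 in Sema and 53.3 ± 7.74 in Ctrl (−0.62, SE 0.09). For SRGN and HBEGF every Sema culture lay below every Ctrl culture. All 3 kept their calls without any 1 of the 12 cultures, and lost them without the replicate block.

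A further 8 genes among the 12 largest falls over 20 CPM were smaller changes. DCSTAMP, needed for the fusion of macrophages into giant cells, stood at 17.4 ± 5.27 CPM in Sema and 24.0 ± 8.24 in Ctrl (SD, n = 3 each), overlapping as groups but lower in each pair (−0.45, SE 0.10). RGS1, which shortens signalling by G protein-coupled receptors, stood at 29.4 ± 2.51 in Sema and 40.1 ± 1.76 in Ctrl (−0.45, SE 0.08), with no overlap. GNA13, a G protein α subunit that signals to RhoA, stood at 62.5 ± 2.09 in Sema and 81.4 ± 8.38 in Ctrl (−0.38, SE 0.06), and RUNX3, a transcription factor of leukocytes, at 81.3 ± 6.18 and 105 ± 5.11 (−0.38, SE 0.06). SIPA1L1, a regulator of Rap GTPases, fell by 0.39 (SE 0.08), and CREM, a transcription factor of the cAMP response, by 0.38 (SE 0.10) on the log2 scale. CREM and DCSTAMP were the least stable of these, called without 6 and 7 of the 12 cultures left out in turn. The remaining genes, ATF3 and DUSP1, belong to the immediate-early group.

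**Figure D2:**
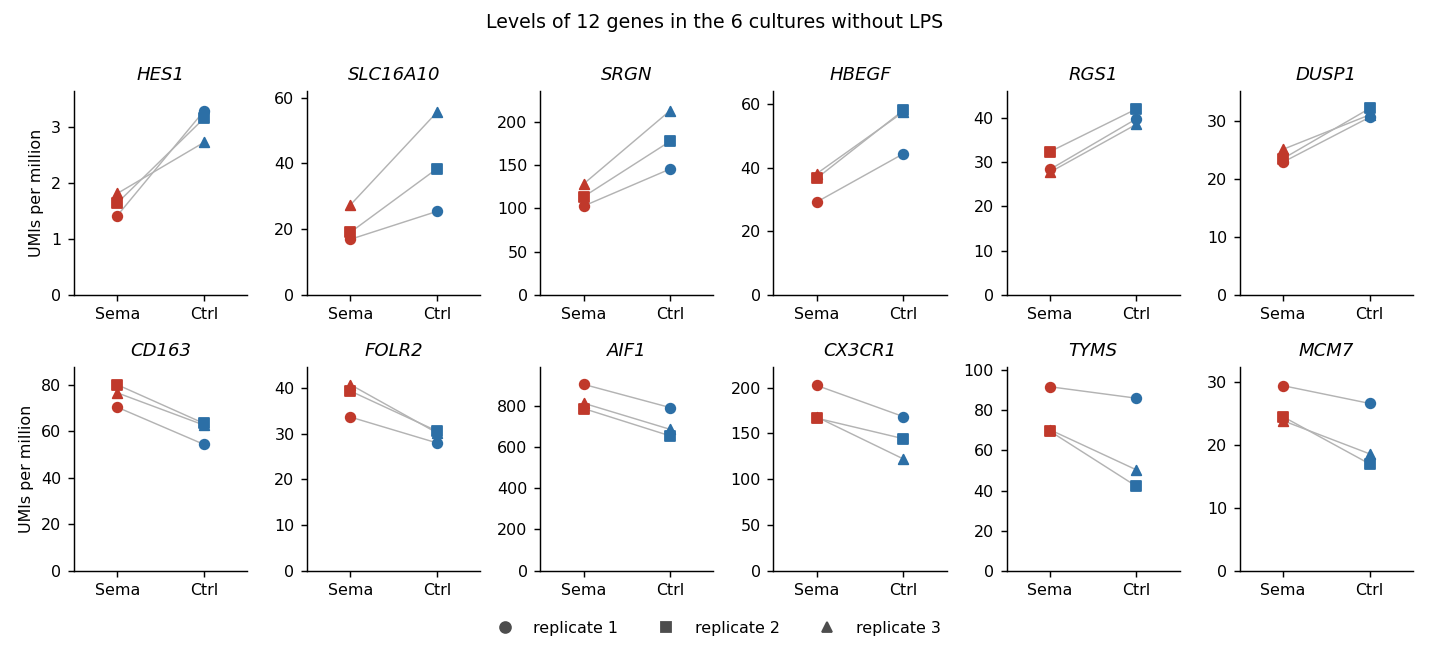
Levels of 12 genes (y axes from 0, TMM-scaled CPM) in each Sema and Ctrl culture; symbols mark the replicate number and grey lines join cultures of the same number. SLC16A10 falls in each pair while its groups overlap, and SRGN, HBEGF, RGS1, DUSP1 and HES1 show no overlap; CX3CR1, TYMS and MCM7 rise in each pair with overlapping groups.

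Immediate-early genes and feedback regulators of MAP kinases fell in part. Of 33 listed genes, all tested, 9 fell and 0 rose, beside 1.5% of all genes falling, and the median log2 fold change was −0.13, beside 0.002 over all genes. EGR3, a zinc-finger transcription factor, had 4.66, 5.92 and 5.30 CPM in Sema and 8.44, 9.02 and 9.004 in Ctrl (−0.74, SE 0.08, adjusted p = 0.000861), and passed under every culture left out and without the block. Its relatives EGR1, at 5.49 ± 0.389 in Sema and 7.77 ± 0.693 in Ctrl (SD, n = 3 each; −0.50, SE 0.11), and EGR2 (−0.31, SE 0.07) fell as well. DUSP1, a phosphatase acting on MAP kinases, had 22.9, 23.5 and 25.1 in Sema and 30.7, 32.2 and 31.1 in Ctrl, with little spread within either group (−0.39, SE 0.06, adjusted p = 0.0031). ATF3, a stress-induced transcription factor, stood at 36.7 ± 7.88 in Sema and 49.8 ± 10.8 in Ctrl (−0.44, SE 0.08). IER2 (−0.28), the AP-1 subunit gene JUND (−0.22), the nuclear receptor gene NR4A3 (−1.03) and DUSP4 (−0.29) made up the rest. Leaving out Sema-1, Sema-2 or Sema-3 left 6, 5 or 4 falling genes, leaving out Ctrl-2 or Ctrl-3 left 4 or 3, and requiring the hashtag at 10 times the next left 3. Over the 12 cultures left out in turn the medians lay between −0.15 and −0.10. Cells were collected in actinomycin D, a blocker of transcription, per the labels' protocols.

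Genes of homeostatic microglia and of tissue macrophages rose. Of 26 tested members of the homeostatic list (29 listed), 11 rose and 0 fell, beside 1.46% of all genes rising, with a median log2 fold change of 0.17. CD163, the scavenger receptor for haemoglobin complexes (ENSG00000177575, chromosome 12 at 7470813 to 7503893), had 70.4, 80.1 and 76.6 CPM in Sema and 54.4, 63.5 and 62.7 in Ctrl. No Sema culture overlapped with Ctrl (0.33, SE 0.03, adjusted p = 0.000359). FOLR2, the folate receptor of resident macrophages, stood at 37.9 ± 3.76 in Sema and 29.6 ± 1.40 in Ctrl (SD, n = 3 each; 0.36, SE 0.06), and the crystallin gene CRYBB1 at 42.5 ± 1.53 and 34.5 ± 2.11 (0.30, SE 0.04). AIF1, which encodes the calcium-binding protein IBA1, had 903, 786 and 812 in Sema and 790, 653 and 685 in Ctrl, so that Sema-2 lay below Ctrl-1 while each pair differed the same way (0.23, SE 0.02, adjusted p = 0.000311). The fractalkine receptor gene CX3CR1 had 202, 167 and 168 in Sema and 168, 144 and 122 in Ctrl (0.31, SE 0.06), and the purinergic receptor genes P2RY12 (0.30, SE 0.07) and P2RY13 (0.51, SE 0.10) rose with it.

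The other called members were C1QA, ADORA3, GAS6 and MRC1, with log2 fold changes of 0.11 to 0.21. Among 21 phagocytic and scavenger receptors, CD163, MRC1 and the Fc receptor gene FCGR3A rose and SCARB2 fell, beside 1.46% of all genes rising and 1.5% falling. CD163 and MRC1 are also on the homeostatic list. With a culture left out, 1 to 5 of these receptors rose and 0 to 1 fell. BIN1, which shapes membranes and is outside both lists, stood at 46.0 ± 7.01 in Sema and 36.5 ± 3.55 in Ctrl (SD, n = 3 each; 0.33, SE 0.05). CD163, FOLR2, AIF1, CRYBB1 and BIN1 kept their calls without any 1 culture, whereas CX3CR1 lost its call when Sema-1, Sema-3, Ctrl-2 or Ctrl-3 was left out. Leaving out Sema-1, Sema-2 or Sema-3 left 7, 5 or 4 rising homeostatic genes, leaving out Ctrl-1, Ctrl-2 or Ctrl-3 left 7, 6 or 5, and the hashtag at 10 times the next left 4. The median stayed between 0.13 and 0.20 as each of the 12 cultures was left out. Of the monocyte markers, S100A8 rose (0.22, SE 0.05, adjusted p = 0.0372) and S100A9 stood at 0.16 (SE 0.04, adjusted p = 0.0588). The others were mixed. VCAN had 12.1, 10.7 and 12.7 CPM in Sema and 14.3, 15.3 and 7.36 in Ctrl, without TMM scaling. S100A12 was also lower in Sema in pairs 1 and 2 only, and FCN1 in pair 2 only. The part of monocyte markers in the result was not tested.

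Genes of disease-associated and lipid-associated microglia moved the other way in part. Of 24 tested members, 5 fell and 0 rose, beside 1.5% of all genes falling, with a median of −0.07. The tetraspanin gene CD9 stood at 1526 ± 263 CPM in Sema and 1842 ± 263 in Ctrl (SD, n = 3 each; −0.28, SE 0.03), lower in each pair with overlapping groups. SPP1, which encodes the secreted matrix protein osteopontin, took 342 ± 19.3 of 10000 UMIs of a cell in Sema and 401 ± 31.4 in Ctrl, averaged over cells with a UMI, and fell by 0.21 (SE 0.03). The integrin gene ITGAX (−0.24, SE 0.05), the chitinase-like gene CHI3L1 (−0.25, SE 0.06) and the cathepsin gene CTSB (−0.16, SE 0.03) also fell. TREM2, a lipid-sensing receptor on this list, stood at −0.03 (SE 0.03). The number falling was 3 when any of Sema-2, Sema-3, Ctrl-2 and Ctrl-3 was left out.

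Among 27 genes of adhesion, matrix and proteolysis, 7 fell and 1 rose, beside 1.5% of all genes falling and 1.46% rising. Besides SRGN, HBEGF and ITGAX, these were the integrin gene ITGB1 (584.8 ± 55.0 in Sema and 662.5 ± 68.7 in Ctrl; −0.18, SE 0.03), the urokinase receptor gene PLAUR (−0.24, SE 0.05), the membrane metalloproteinase gene MMP14 (−0.12, SE 0.03) and the metalloproteinase inhibitor gene TIMP1 (−0.18, SE 0.04). ITGAM, the αM integrin, rose by 0.25 (SE 0.06). The number falling was 3 when Sema-2, Sema-3 or Ctrl-2 was left out, and 4 for Ctrl-3.

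Genes of DNA replication rose together across the cultures. Of 35 listed genes, 19 rose and 0 fell, beside 1.46% of all genes rising, all 35 fold changes were positive, and the median was 0.31. TYMS, the enzyme that makes thymidylate, had 91.7, 69.6 and 70.3 CPM in Sema and 86.0, 42.1 and 50.3 in Ctrl (0.41, SE 0.09, adjusted p = 0.0224). Cultures of number 1 were high in both conditions, so the groups overlapped. The same held for the helicase subunit gene MCM7 (29.4, 24.5 and 23.9 in Sema; 26.6, 17.0 and 18.6 in Ctrl), and PCNA, the sliding clamp, stood at 90.8 ± 10.0 in Sema and 72.7 ± 15.0 in Ctrl (SD, n = 3 each). CLSPN, HELLS and FEN1, which act at the replication fork or on chromatin, rose by 0.34, 0.34 and 0.33, as did TMEM106C (0.33), outside the list. The called genes also included MCM2 to MCM6, RRM1, TK1, E2F1 and CDT1. Of 30 genes for G2 and mitosis 0 were called by edgeR or by DESeq2, with a median of 0.16 and 27 of 30 positive. With 1 of the 12 cultures left out in turn, 7 rose without Ctrl-1 and 0 without any other, and the median ranged between 0.05 (without Ctrl-2) and 0.31 (without Ctrl-1). CDK1, the kinase that drives mitosis, stood at 0.27 (SE 0.09, adjusted p = 0.105) and NUSAP1, a spindle protein gene, at 0.24 (SE 0.08, adjusted p = 0.143), and both passed when the 6 cultures were fitted alone.

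The count of replication genes depended on the cultures: leaving out Sema-1, Sema-2 or Sema-3 left 13, 2 or 4, leaving out Ctrl-2 or Ctrl-3 left 2 or 0, and the hashtag at 10 times the next left 4. The median lay between 0.25 and 0.40 as each of the 12 cultures was left out. A list of 28 cycling genes, of which 8 are replication genes, was then used to sort cells. Cells with over 5 UMIs of it per 10000 made up 25.3, 19.7 and 20.3% of Sema cultures and 23.1, 11.8 and 14.3% of Ctrl cultures. At this bound, chosen after seeing the data, the share was higher in Sema in each of the 3 pairs, by 5.32 percentage points in the mean, with an exact permutation p of 0.3 (two-sided, unpaired, 3 against 3, where 0.10 is the smallest possible). In those cells the other 27 replication genes summed to 24.0, 24.2 and 22.0 UMIs per 10000 in Sema and 23.1, 23.5 and 22.1 in Ctrl, higher in Sema in pairs 1 and 2 only. In the remaining cells they summed to 3.85, 3.65 and 3.55 in Sema and 3.63, 3.56 and 3.47 in Ctrl, higher in Sema in each pair with overlapping groups.

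Cells low in cycling transcripts, with at most 1 UMI of the list per 10000, numbered 3646 of the 8175. This bound lies inside the main mode of the cells, with a median of 1.15 and 1653 cells between 0.75 and 1.25. The share above it was 58.8, 53.5 and 57.3% in Sema-1 to Sema-3 and 59.3, 48.3 and 53.9% in Ctrl-1 to Ctrl-3, lower in Sema in pair 1 and higher in pairs 2 and 3. The means were 56.5 ± 2.74% in Sema and 53.8 ± 5.48% in Ctrl (SD, n = 3 each). The exact permutation test, two-sided and unpaired, gave p = 0.7 and does not take out the spread between replicate numbers. Within the low cells 14415 genes were tested, 120 rose (0.832%) and 117 fell (0.812%), together 237 (1.64%). Leaving out Sema-1 or Sema-3 gave 86 or 39, leaving out Ctrl-1, Ctrl-2 or Ctrl-3 gave 72, 148 or 52, and dropping the replicate block gave 2. Of the 225 genes that rose in all cells, 219 were tested in the low cells, where 68 rose and 208 had the same sign, and of the 231 that fell, 229 were tested, 97 fell and 228 had the same sign. The cells in this comparison are a subset of those in the first, so these shares are a description. No replication gene was called there of 33 tested (median 0.05), and the list that sorted the cells holds 8 of the 35. Sorting by that list takes out cells rich in replication transcripts, so this is no separate result about these genes.

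The homeostatic genes and the leading falls kept their size in the low cells. Of all genes tested in these cells 0.832% rose and 0.812% fell, and the counts below stand beside these shares. There 11 of 25 homeostatic genes rose with a median of 0.17, CX3CR1 by 0.47 and P2RY13 by 0.76, and the complement genes C1QB (0.17) and C1QC (0.13) joined AIF1 (0.29) and CD163 (0.31), while MERTK, a receptor for dying cells, fell (−0.22). SLC16A10 stood at −0.86, SRGN at −0.61, HBEGF at −0.55 and DUSP1 at −0.39, all called. Of the immediate-early genes 4 of 33 fell (ATF3, DUSP1, EGR3 and IER2). Adhesion genes fell in 5 of 27 cases, and CD9, SPP1, CTSB, ITGAX and GPNMB of the 24 disease-associated genes.

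**Figure D3:**
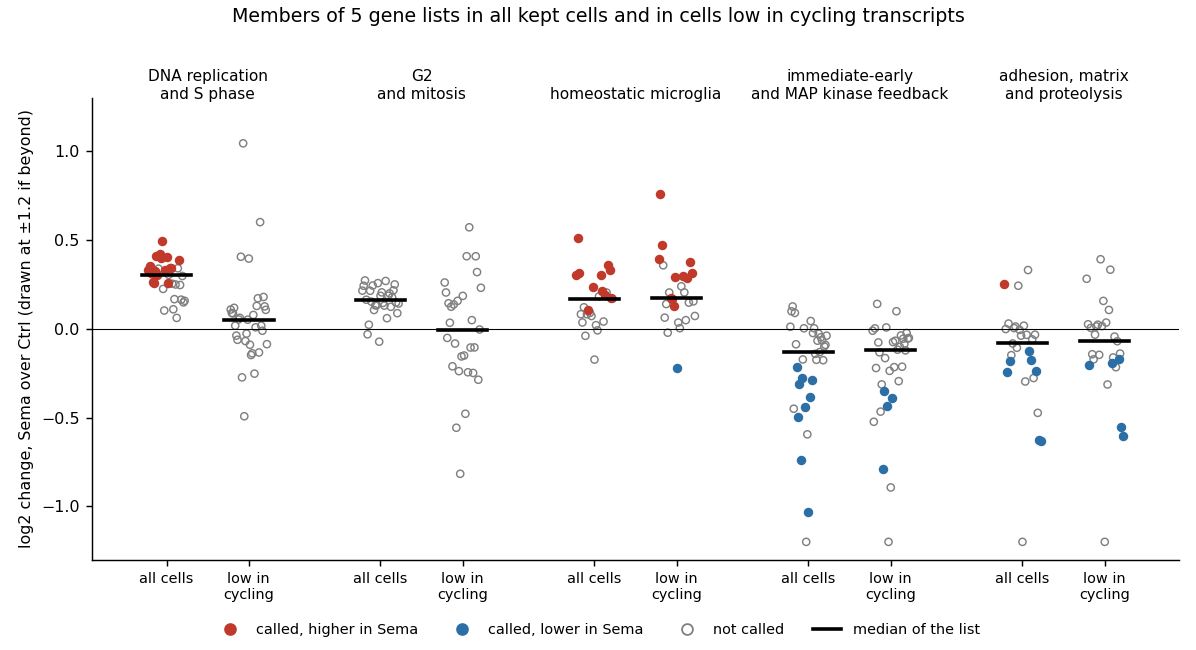
Each point is a gene of 1 of 5 lists, with its log2 change (Sema over Ctrl) on the y axis, for all kept cells at left and cells low in cycling transcripts at right of each pair of columns; filled points are called, bars are medians over the members tested in both. The replication genes centre near 0.31 in all cells and near 0.05 in the low cells, while the homeostatic median is 0.17 in both. The low cells were picked for few cycling transcripts, so the lower replication median there follows in part from the selection.

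Several of these genes also differed in the share of cells with a transcript. A change in the number of expressing cells and a change in the level per cell were not told apart. Each cell was thinned to 10000 UMIs, which left out 118 Sema and 55 Ctrl cells of lower depth, and the share of cells with at least 1 UMI was compared on the log2 odds scale by limma with the same block. Of 11906 genes with a mean share of 1 to 99%, 82 rose (0.689%) and 83 fell (0.697%), together 165 (1.39%). Leaving out Sema-1, Sema-2 or Sema-3 gave 81, 50 or 38, and leaving out Ctrl-2 or Ctrl-3 gave 42 or 65. It was 0 without the replicate block by limma, where 802 genes had an unadjusted p under 0.05. SLC16A10 was seen in 13.7, 14.8 and 18.5% of Sema cells and 17.6, 27.0 and 30.2% of Ctrl cells (log2 odds −0.82), and its positive cells had 1.35 ± 0.0781 UMIs in Sema and 1.67 ± 0.226 in Ctrl (SD, n = 3 each). HBEGF was seen in 19.4, 23.5 and 25.4% of Sema cells and 27.4, 36.1 and 33.3% of Ctrl cells. SRGN was seen in 46.7 to 53.5% of Sema cells and 56.3 to 65.4% of Ctrl cells, at 2.34 ± 0.133 UMIs per positive cell in Sema and 3.11 ± 0.303 in Ctrl. CD163 was seen in 44.7, 45.0 and 44.8% of Sema cells and 36.6, 39.0 and 38.8% of Ctrl cells. No cell type lacking these genes was present among the cells, so the level set by free RNA was not measured.

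**Figure D4:**
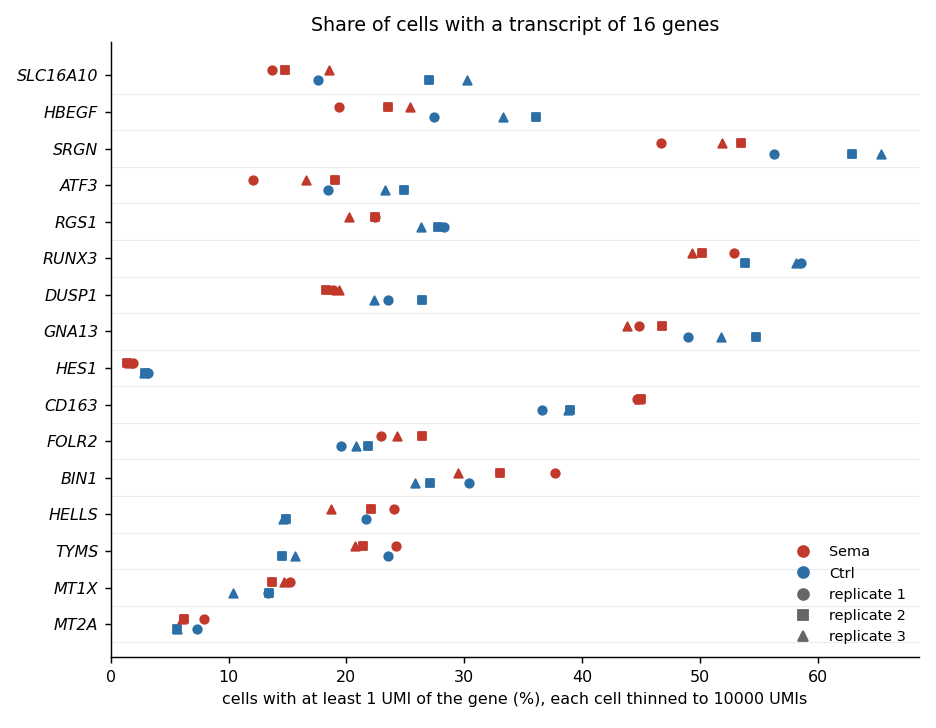
Share of cells with at least 1 UMI (x axis, %, cells thinned to 10000 UMIs) for 16 genes in each Sema (red) and Ctrl (blue) culture, with symbols for the replicate number. SRGN, HBEGF, RGS1, RUNX3, DUSP1, GNA13, HES1, CD163, FOLR2 and MT1X do not overlap between the groups, whereas MT2A lies between 5.58 and 7.93% in all 6 cultures.

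Metallothionein genes showed the largest rises over 20 CPM, and these rested on a few cells. Metallothioneins are small cysteine-rich proteins that bind zinc and copper, and their genes are induced by metals through the factor MTF1. MT2A (ENSG00000125148, chromosome 16 at 56608199 to 56609497) had 30.0, 26.3 and 39.0 CPM in Sema and 10.1, 25.1 and 16.9 in Ctrl (0.89, SE 0.20, adjusted p = 0.03). MT1X (ENSG00000187193, chromosome 16 at 56682424 to 56684196) had 30.0, 25.9 and 30.5 in Sema and 15.0, 21.9 and 16.2 in Ctrl (0.71, SE 0.10, adjusted p = 0.00291). The groups did not overlap for either gene, and in the low-cycling cells MT2A stood at 1.53 and MT1X at 0.99. The 10 cells of a culture richest in MT2A held 1049 of 1332, 842 of 1071 and 1998 of 2472 MT2A UMIs in Sema-1 to Sema-3, and 164 of 395, 764 of 987 and 448 of 620 in Ctrl-1 to Ctrl-3. Cells with at least 20 MT2A UMIs numbered 8, 8 and 10 in the Sema cultures, at most 0.635% of a culture, and 2, 5 and 5 in the Ctrl cultures. Of the 10 richest cells, 7 or 8 in each Sema culture and 2, 5 and 4 in Ctrl-1 to Ctrl-3 were also among the 10 richest in MT1X. Under HTODemux-like thresholds 4, 1 and 3 of them in Sema and 5, 0 and 1 in Ctrl carried more than 1 hashtag, beside 1214 of all 8175 cells. Whether they were doublets was not tested. With such cells left out by these thresholds, MT2A stood at 0.784 by edgeR (adjusted p = 0.0397).

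When each gene was tested without its 10 richest cells per culture, MT2A stood at 0.24 (adjusted p = 0.594) and MT1X at 0.19 (adjusted p = 0.136). The share of cells with a transcript did not pass for either (adjusted p = 0.727 and 0.165). For MT1X this share was 15.2, 13.7 and 14.7% in Sema and 13.3, 13.4 and 10.4% in Ctrl, without overlap. The libraries, divided from 1 pool, also differed: in library 1 alone MT2A stood at 1.78 and MT1X at 1.14, whereas in library 2 alone MT2A stood at −0.00416 and MT1X at 0.24 (adjusted p = 0.682). By the same measure SLC16A10 (−0.93), SRGN (−0.65) and CD163 (0.33) were as large without their richest cells. LUM, a matrix proteoglycan gene called at −6.51, had 423 UMIs in a single Ctrl-2 cell and at most 2 UMIs in each other culture of the 6, and was named after its values were seen. Metal response elements hold the letters TGCACNC or TGCGCNC, and the promoters of both genes are shown with these in capitals because these genes led the rises (RefSeq, GRCh38.p14, plus strand, 250 bases before and 50 after the start; chr16:56608334-56608633 and chr16:56682220-56682519).
MT2A: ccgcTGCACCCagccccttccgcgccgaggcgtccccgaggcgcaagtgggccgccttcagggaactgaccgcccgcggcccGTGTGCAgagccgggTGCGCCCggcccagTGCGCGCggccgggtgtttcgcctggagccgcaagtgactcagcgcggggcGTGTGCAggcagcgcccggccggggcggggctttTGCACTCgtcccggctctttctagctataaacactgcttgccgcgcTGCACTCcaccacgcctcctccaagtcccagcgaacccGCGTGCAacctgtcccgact
MT1X: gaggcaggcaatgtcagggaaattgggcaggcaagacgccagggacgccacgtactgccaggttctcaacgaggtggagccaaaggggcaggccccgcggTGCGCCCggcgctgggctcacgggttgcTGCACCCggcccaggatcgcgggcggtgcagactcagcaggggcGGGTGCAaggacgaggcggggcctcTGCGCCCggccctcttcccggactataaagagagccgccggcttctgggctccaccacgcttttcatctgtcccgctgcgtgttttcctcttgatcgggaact
Over both strands the windows held 8 and 4 matches. Of 35116 promoters of this length, 29.6% held at least 1 match, 0.601% at least 4 and 0.0199% at least 8.

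**Figure D5:**
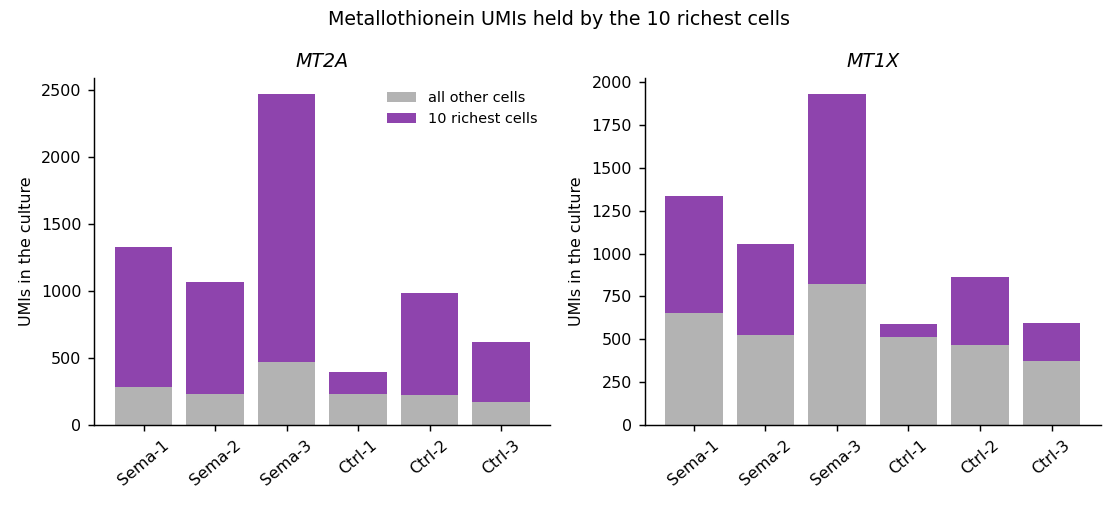
UMIs of MT2A and MT1X in each culture (y axis, sum over the kept cells), divided into the 10 cells richest in the gene (purple) and all other cells (grey). The purple part makes up 78.6 to 80.8% of MT2A UMIs in Sema cultures and 41.5 to 77.4% in Ctrl cultures.

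Of 17 tested Notch target genes 1, HES1, was called, a count that cannot be told from the 2.96% of all genes. HES1, a repressor of transcription and a classical Notch target (ENSG00000114315, chromosome 3 at 194136145 to 194138732), was read from 63, 67 and 115 UMIs in Sema-1 to Sema-3 and 129, 124 and 100 in Ctrl-1 to Ctrl-3. As CPM these were 1.42, 1.645 and 1.81 in Sema and 3.29, 3.16 and 2.73 in Ctrl, with no overlap (−0.89, SE 0.12, adjusted p = 0.00246). It was seen in 1.38 to 1.87% of thinned Sema cells and 2.83 to 3.17% of Ctrl cells (adjusted p = 0.0482), at 1.07 ± 0.0307 UMIs per positive cell in Sema and 1.11 ± 0.0514 in Ctrl (SD, n = 3 each). In the low-cycling cells it stood at −1.01 and under LPS, SemaLPS over LPS, at −0.88 (SE 0.12). The call held without the block and without any 1 culture, and was lost in library 1 alone (−0.82, adjusted p = 0.0627). The core of the RBPJ site is TGGGAA, and the HES1 promoter is shown with these letters in capitals because HES1 is the gene called (RefSeq, GRCh38.p14, plus strand, chr3:194135898-194136197).
HES1: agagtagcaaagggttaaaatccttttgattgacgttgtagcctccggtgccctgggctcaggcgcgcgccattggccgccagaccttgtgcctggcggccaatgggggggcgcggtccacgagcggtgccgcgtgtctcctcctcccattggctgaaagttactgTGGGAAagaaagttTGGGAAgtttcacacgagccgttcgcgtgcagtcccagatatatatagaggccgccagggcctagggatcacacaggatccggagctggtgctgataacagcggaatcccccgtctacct
It held 2 matches, at 84 to 79 and 70 to 65 bases before the start. Counting both strands, 24.0% of 35116 promoters held at least 1 match and 3.8% at least 2.

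The other 16 of 17 tested Notch targets did not pass. LFNG, a glycosyltransferase that modifies Notch, had 4.37, 5.08 and 5.30 CPM in Sema and 5.41, 6.26 and 6.36 in Ctrl without overlap (−0.29, SE 0.08, adjusted p = 0.0628), and passed when the 6 cultures were fitted alone. DTX1 stood at −0.43 (SE 0.16), NRARP at −0.34 (SE 0.33), GATA3 at −0.22 (SE 0.29), HES4 at −0.11 (SE 0.32), IL7R at −0.10 (SE 0.09), NOTCH3 at −0.05 (SE 0.43), MYC at −0.04 (SE 0.05) and BCL6 at −0.01 (SE 0.04). On the positive side CCND1 stood at 0.03 (SE 0.03), CDKN1A at 0.04 (SE 0.03), PTCRA at 0.06 (SE 0.06), ID3 at 0.09 (SE 0.10), DTX4 at 0.12 (SE 0.09), HEY1 at 0.37 (SE 0.38) and HES2 at 0.53 (SE 0.72). The median of the 17 was −0.04. HEY1, HES2, HES4, NRARP, GATA3 and NOTCH3 lay under 1 CPM in every culture.

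Genes of the enzyme, its pathway and its substrates were called about as often as the 2.96% of all genes, so their counts are no result about these lists. Of 6 γ-secretase subunit genes 0 were called by edgeR or by DESeq2, beside 2390 of 15383 genes with an unadjusted p under 0.05, and their median was −0.02; APH1B stood at −0.12 (SE 0.04, adjusted p = 0.154) and APH1A at 0.04 (SE 0.03). Of 20 further Notch pathway genes none was called, with NUMB at −0.14 (SE 0.04, adjusted p = 0.0527) and ITCH at −0.14 (SE 0.04, adjusted p = 0.0743). NUMB passed under several settings, among them DESeq2's Wald test and HTODemux-like hashtag thresholds. Of 29 tested genes listed as substrates 1 rose, ITM2B. It encodes a membrane protein of the BRICHOS family, and whether γ-secretase cuts this protein was not tested. ITM2B stood at 1317 ± 28.6 in Sema and 1251 ± 35.4 in Ctrl (SD, n = 3 each). It rose by 0.08 on the log2 scale (SE 0.02), and lost that call under several settings. APP (−0.04, SE 0.03), CSF1R (−0.04, SE 0.03) and CLSTN3 (−0.47, SE 0.18, adjusted p = 0.191) did not pass.

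Metabolic, lysosomal and lipid lists each held 1 to 3 called genes, beside 2.96% of all genes called. HIF1A, the transcription factor of low oxygen, stood at 153 ± 5.02 in Sema and 185 ± 14.6 in Ctrl (SD, n = 3 each; −0.28, SE 0.06), without overlap. It was called with PKM (−0.08) and EGLN3 among 26 genes of glycolysis and hypoxia, of which 3 were positive. EGLN3 was read from only 2, 1 and 2 UMIs in Sema and 5, 25 and 17 in Ctrl. Of 30 lysosomal genes CTSB, GLA (−0.16) and ATP6V0D2 (−0.30) fell. Of 17 amino acid transporters SLC16A10 and SLC1A4 (−0.16, SE 0.04) fell, and in the low cells SLC16A10, SLC38A2 and SLC7A5. Of 10 LXR targets PLTP, which moves phospholipids between lipoproteins, rose (137 ± 16.4 in Sema and 119 ± 5.15 in Ctrl; 0.21, SE 0.04), and NR1H3, the LXRα gene, stood at 0.20 (SE 0.06, adjusted p = 0.102).

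In 7 more lists no gene passed edgeR's test in all cells. These were inflammatory cytokines and NF-κB (31 genes, median 0.05), interferon-induced genes (29, 0.01), antigen presentation by MHC class II (13, −0.03), cholesterol synthesis (22, 0.02), the TGF-β response (19, −0.03), the unfolded protein and integrated stress response (20, −0.04), and chaperones (15, 0.04). Their members with the smallest p were IL10 (0.32, SE 0.12) and EBI3 (0.33, SE 0.12), STAT2 (−0.12, SE 0.06) and RSAD2 (0.82, SE 0.34), HLA-DRB1 (−0.08, SE 0.04) and CTSS (0.05, SE 0.02), DHCR7 (0.12, SE 0.05) and EBP (0.14, SE 0.04), ID1 (0.37, SE 0.12) and SMAD7 (−0.09, SE 0.03), ATF4 (−0.13, SE 0.04) and SLC7A11 (−0.44, SE 0.12), and HSPD1 (0.07, SE 0.02) and HSPE1 (0.09, SE 0.03). Some passed otherwise. EBI3, a subunit shared by heterodimeric interleukins, stood at 0.47 under HTODemux-like hashtag thresholds (adjusted p = 0.00514). With the hashtag at 10 times the next it stood at 0.44 (adjusted p = 0.0382). EBI3, DHCR7 and EBP passed in the share of cells with a UMI. That call of EBI3 held in 16 other settings and was lost in 4. For EBP it held in 6 and was lost in 14, and for DHCR7 it held in 5 and was lost in 15. By DESeq2 the stress genes DDIT4 and HERPUD1, named after their values were seen, were lower, and ATF4 passed in the low cells. The assignment of cells to cultures moved CXCL8. This gene of a neutrophil chemokine had 38.6, 31.1 and 43.6 CPM in Sema and 43.7, 48.1 and 38.6 in Ctrl (−0.19, SE 0.11, adjusted p = 0.444), and stood at −0.39 with the hashtag at 10 times the next (adjusted p = 0.126) and −0.41 under HTODemux-like thresholds (adjusted p = 0.0448).

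The response without LPS was set against that under LPS in the common model, SemaLPS minus LPS against Sema minus Ctrl. Of 15383 genes 10 differed (0.065%). MT1X rose without LPS, and stood at 25.1, 26.5 and 24.1 CPM in SemaLPS and 41.9, 37.7 and 35.5 in LPS, a log2 fold change of −0.61 (SE 0.09), and MT2A stood at −0.66 (SE 0.15) under LPS. The other 8 were COL3A1 and LUM, whose UMIs came from a few cells, and PTGDS, DOP1B, SLC31A1, SOCS6, MMD and HLA-DRB1. PTGDS, the prostaglandin D synthase gene, stood at −0.46 (SE 0.12) without LPS and 0.62 (SE 0.11) under it. Its 10 richest cells held 32.7 to 62.0% of its UMIs in Sema and 44.8 to 58.4% in Ctrl, and without them it stood at −0.25 without LPS (adjusted p = 0.631). SLC31A1, the copper importer gene, stood at −0.19 (SE 0.03) and 0.11 (SE 0.03). DOP1B stood at −0.26 without LPS and 0.13 under it. HLA-DRB1 stood at −0.08 without LPS and 0.30 (SE 0.04) under it, and SOCS6 at −0.08 and 0.23. For the leading falls the difference did not pass (adjusted p of 0.344 for SLC16A10 and 0.363 for SRGN): SLC16A10 stood at −0.90 without LPS and −0.35 under LPS, SRGN at −0.63 and −0.24, and HBEGF at −0.62 and −0.50.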

How the data were processed

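Gene and hashtag UMI counts of each barcode called as a cell were deposited for 2 libraries, not normalized per the file headers, which name Cell Ranger 6.0.1. The submitters' processing notes list Cell Ranger 3.0.2 and Seurat 4.1.1, with hg38 as the build. No source used here names the annotation release, and positions of the gene IDs come from GENCODE v29, which holds 34616 of the 36601 genes. Of 28943 barcodes 24662 passed the hashtag rule, and 16937 were kept. The share of a culture's otherwise accepted cells left out for mitochondrial UMIs over 10% was 26.58 to 37.27% in Sema and 30.61 to 37.84% in Ctrl. Doublets were treated only through the hashtags; 1214 of the 8175 cells carried more than 1 hashtag under thresholds set in the manner of HTODemux. The median cell had 28051 to 28792 UMIs in the 6 cultures.

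For each culture UMIs of both libraries were added up, and the sums were tested in edgeR 4.0.16 (R 4.3.3; TMM, filterByExpr, quasi-likelihood F test), with Benjamini-Hochberg adjustment at 0.05 over all genes tested. Each SE was approximated from the F statistic, as the size of the log2 change over the root of F. Levels are CPM with TMM scaling, computed here, except the sums of marker lists, which are not TMM-scaled. Shares of cells used log2 odds with 0.5 added, in limma 3.58.1. The labels give the same replicate numbers in each condition without saying what a number marks. The comparison was defined with this number as a block. Sema and Ctrl cultures of the same number deviated together from their group means (r of 0.759, 0.438 and 0.498 over 5275 genes). Other pairs had r of −0.532 to 0.22. Deviations from a group's mean cancel within the group, so the lower values of other pairs follow in part from the centring. Alternatives were another scaling, no filter, DESeq2 1.42.0, no block, the 6 cultures alone, each library alone, other hashtag, mitochondrial and cycling bounds, other thinning, a mean over cells, and each culture left out. Leaving out the 10 richest cells per gene and the bound of 5 on the cycling list were chosen after seeing the data. The scripts were tested on simulated data.

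The comparison, its gene lists and its tests were chosen with earlier results of these data known. Named genes are the 12 largest rises and falls called at 20 CPM or more with the same direction in all 3 pairs, the 2 members of each list with the smallest p, and all tested Notch targets. Other genes are named as called members of a list, or were chosen after their values were seen. A gene that this rule names is not reported here.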

Additional observations from a re-analysis of the deposited data

Results flagged for a closer look

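MT1X, MT2A and HLA-DRB1 changed differently with semagacestat under LPS than without it, by the interaction term of the common edgeR model over 12 cultures. MT1X had an interaction of −1.32 on the log2 scale (SE 0.14, adjusted p = 0.00164): it was higher in Sema than in Ctrl in all 3 pairs and lower in SemaLPS than in LPS in all 3. MT2A, the other metallothionein gene, had −1.55 (SE 0.26, adjusted p = 0.0411), with 62.9, 96.8 and 80.5 CPM in SemaLPS and 119, 110 and 148 in LPS. The 10 richest cells held 18.0 to 29.7% of MT2A UMIs in SemaLPS and 34.2 to 40.6% in LPS. In Sema they held 78.6 to 80.8% and in Ctrl 41.5 to 77.4%. For MT1X they held 9.33 to 29.8% in SemaLPS, 42.6 to 50.5% in LPS, 50.4 to 57.5% in Sema and 12.9 to 45.9% in Ctrl. The other cells held 1069, 1077 and 713 MT1X UMIs in SemaLPS-1 to SemaLPS-3, not scaled for depth. In LPS-1 to LPS-3 they held 969, 798 and 802. The part of the richest cells in either interaction was not tested. HLA-DRB1, a chain of an MHC class II molecule, had 0.382 (adjusted p = 0.0372), standing at −0.08 without LPS and 0.30 under it. HLA-DRB1 reads can be divided among near-identical genes of the family, so its level is uncertain. In library 2 alone these 3 genes did not pass: MT1X stood at −1.12 (adjusted p = 0.232), MT2A at −0.884 (adjusted p = 0.635) and HLA-DRB1 at 0.32 (adjusted p = 0.215). In library 1 alone MT1X stood at −1.45 and MT2A at −2.21, both called, and HLA-DRB1 at 0.445 (adjusted p = 0.0795). With each of the 12 cultures left out in turn, MT1X kept its call, with adjusted p between 1.34e-05 and 0.0291, whereas MT2A lost its call without Sema-1, Sema-3, SemaLPS-1, SemaLPS-3, Ctrl-1 or Ctrl-3 (up to 0.181) and HLA-DRB1 without Sema-1, Sema-3, SemaLPS-2, LPS-2, Ctrl-2 or Ctrl-3 (up to 0.122).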

How the results depend on the processing

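The number of genes called depended most on the replicate block, without which 2 genes passed in all cells, 2 in cells low in cycling transcripts, 0 in the share of cells with a UMI and 1 in the interaction. Fitted on the 6 cultures alone with the block, 914 genes passed in all cells and 422 in the low cells. In all cells, no filter on low counts gave 1015, DESeq2's Wald test 301, library 1 alone 173, library 2 alone 177 and the hashtag at 10 times the next 149. In the low cells, library 1 gave 75, library 2 gave 48, the stricter hashtag 50 and a cycling bound of 0.5 gave 80. For shares, library 1 gave 59, library 2 gave 40, the stricter hashtag 47, thinning to 5000 UMIs 85 and no thinning 276. For the interaction, DESeq2 gave 25, library 1 gave 4, library 2 gave 5 and the stricter hashtag 1. Of the 10 genes called in the main fit, 7, 2, 0 and 1 were among these. Leaving out 1 of the 12 cultures gave 69 to 609 genes in all cells, 39 to 315 in the low cells, 38 to 219 for shares and 1 to 38 for the interaction.

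The difference in the share of cells over 1 cycling UMI per 10000 was −0.147 percentage points in library 1 alone and −0.0983 to 5.38 with a culture left out. MT2A stood at −0.00416 in library 2 alone; MT1X in the low cells stood at −0.0809 in library 2 alone and −0.159 at the bound of 0.5. The cause was not tested for any of these. Of 39 named genes called in all cells, 16 kept the call without each of the 12 cultures and 2 without the block.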
